A study of Mus musculus with 12 samples.

Results

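The comparison was between mouse embryonic fibroblasts (MEFs) transfected with OCKS, a plasmid set that carries Oct4, c-Myc, Klf4 and Sox2, and MEFs transfected with OS, which carries Oct4 and Sox2. Its members were the arrays titled OCKS+chem+VA5+Dnmt1 KD and those titled OS+chem+VA5+Dnmt1 KD, 3 of each, which made 6 of the 12 arrays of the series. The question was what the addition of Klf4 and Myc changed in cells that otherwise received the same agents. Both groups were male MEFs from a cross of C57BL6/J (Vasa::RFP Tg) with C57BL6/J (Oct4_delta_PE-GFP Tg) and were taken on day 4. Both received "chem" (tranylcypromine, BIX-01294 and DZNep, which inhibit histone-modifying enzymes), "VA5" (the histone deacetylase inhibitor valproic acid and ALK5i, a TGF-beta receptor inhibitor) and siRNA against Dnmt1, the maintenance DNA methyltransferase. The other arrays were 3 of control MEFs of the same cross and 3 of female E15.5 primordial germ cells (PGCs) from MCH crossed with C57BL6/J (Oct4_delta_PE-GFP Tg). They appear here for reference levels and enter the fit's estimate of spread.

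Per the study's methods, the OCKS factors were joined in tandem behind 1 CAG promoter, whereas Oct4 and Sox2 of OS came on 2 separate plasmids with an hCMV*1 promoter. The presence of Klf4 and Myc therefore cannot be told apart from the change of plasmid and promoter. The cells were transfected with a lipid reagent and RNA was taken from the whole culture, in which not every cell takes up a plasmid. In bulk RNA, fewer cells that express a gene and less RNA of it per cell cannot be told apart.

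Oct4 (gene Pou5f1) and Sox2 bind DNA together at enhancers of pluripotent cells. Klf4 is a zinc-finger factor that binds GC-rich and CACCC-type sites, promotes epithelial genes and, with the other factors, helps to reprogram fibroblasts. Myc dimerises with Max on E-boxes and is known for raising genes of ribosome production, nucleotide synthesis and growth. The germline reporter transgenes of these MEFs mark cells that switch on Oct4 or Vasa (Ddx4), an RNA helicase of germ cells.

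Expression was read on single-colour oligonucleotide arrays. A gene's level is given as the log2 of its signal over its array's 75th percentile signal, so that 0 is a bright gene. Levels of about -7 and lower were near or below the limit of detection. Insm1 was well above background at -7.16 on OS replicate 1, whereas Tph1 was not at -7.65 on OCKS replicate 1. On the 6 arrays that 75th percentile was a signal of 1319 to 1895 against a background of 23 to 33.5, and 71.9% to 79.1% of spots were well above background. Of 19718 genes, 15705 were tested, namely those that stood well above background on every OCKS array or on every OS array. The number of arrays, 3 per group, limits the precision, and the 95% interval of a gene's difference had a median half-width of 0.30 on the log2 scale. The study's methods call the arrays of a group biological replicates without saying what was repeated, so p-values measure the spread between these arrays.

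OS replicate 3 stood between the groups. Each array was placed on a line over all tested genes that ran from the OS mean, at 0, to the OCKS mean, at 1, the array itself being left out of its group's mean. OS replicate 3 lay at 0.61, whereas OS replicate 1 lay at 0.10 and OS replicate 2 at -0.28. The OCKS arrays lay at 0.62, 0.51 and 0.98 for replicates 1, 2 and 3, so that OS replicate 3 lay among them. The SD over genes of the difference between a pair of arrays was 0.38 for OS replicate 3 against OCKS replicate 3, and 0.41 and 0.42 against the other OS arrays. OCKS replicate 2 was the array farthest from its own group, at an SD of 0.56 from OCKS replicate 1. Results below are therefore given with and without OS replicate 3. This array was chosen for its place near the other group, so leaving it out widens the difference between the groups by construction. OS replicate 1 and OCKS replicate 1 shared a slide, OS replicates 2 and 3 shared another, and OCKS replicates 2 and 3 another, so that the shared slide is the single slide with both groups. Another scaling, to the mean of 8 spike-in probes, moved the median difference of all genes from 0.01 to -0.46 and the lists below with it, so that differences are to be read relative to all genes. With that scaling 7 genes rose and 2673 fell at an adjusted p under 0.05.

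**Figure D1:**
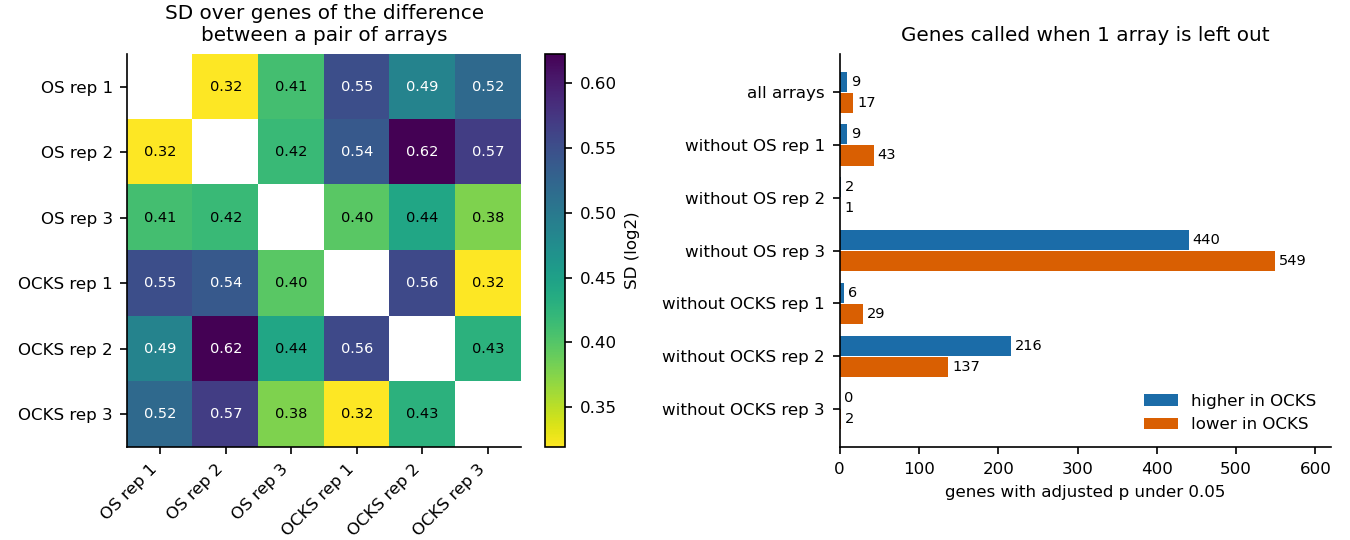
Left, the SD over 15705 genes of the log2 difference between every pair of OS and OCKS arrays; OS replicate 3 is about as far from OCKS replicate 3 (0.38) as from its own group (0.41 and 0.42). Right, the number of genes with an adjusted p under 0.05 (limma), higher or lower in OCKS, with all arrays and with each array left out; the bars reach 440 and 549 without OS replicate 3.

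Pou5f1 was the gene that set the groups apart most, and it was lower in OCKS. Its level was -5.69, -6.87 and -5.71 on OCKS replicates 1, 2 and 3 and -1.76, -0.83 and -0.83 on the OS arrays. No OCKS array came near an OS array, and OS replicate 3 was as high as OS replicate 2. The difference was -4.95 (SE 0.38), or 30.9-fold lower in OCKS, with an adjusted p of 0.00122 (limma, Benjamini-Hochberg). Control MEFs read -7.50, -6.94 and -6.33, so that OCKS replicate 2 lay within their range and the other OCKS arrays above it. PGCs, which express the gene, averaged -2.31. Without OS replicate 3 the Pou5f1 difference was -4.79 (adjusted p = 0.000459).

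Sox2, on the plasmids of both groups, read -3.11, -5.51 and -3.64 in OCKS and -6.20, -5.25 and -3.99 in OS. The groups overlapped, and the Sox2 difference of 1.06 (SE 0.63) did not pass the test (adjusted p = 0.401). Klf4, which was carried by OCKS alone, read 2.41, 3.14 and 2.52 in OCKS and 3.07, 2.90 and 2.65 in OS, a difference of -0.19 with a 95% interval of -0.60 to 0.23. Myc read 1.20, 2.24 and 1.87 in OCKS and 2.27, 2.04 and 1.81 in OS, a difference of -0.27 (interval -0.78 to 0.24). Neither added factor had a higher mean in the group that received it. Control MEFs averaged -5.38 for Sox2, 2.91 for Klf4 and 0.47 for Myc, so that Myc stood above the MEF level in both groups. The files do not place these probes on the transcripts, and a probe outside the part carried by a plasmid reads the cell's own gene alone. Whether the Pou5f1, Sox2, Klf4 and Myc probes read plasmid transcripts was not tested, and their levels therefore check neither the label nor the delivery. The siRNA target Dnmt1 averaged -3.40 in OCKS and -3.11 in OS against -1.06 in control MEFs. The Dnmt1 difference between the transfected groups was -0.29 (interval -0.66 to 0.08).

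**Figure D2:**
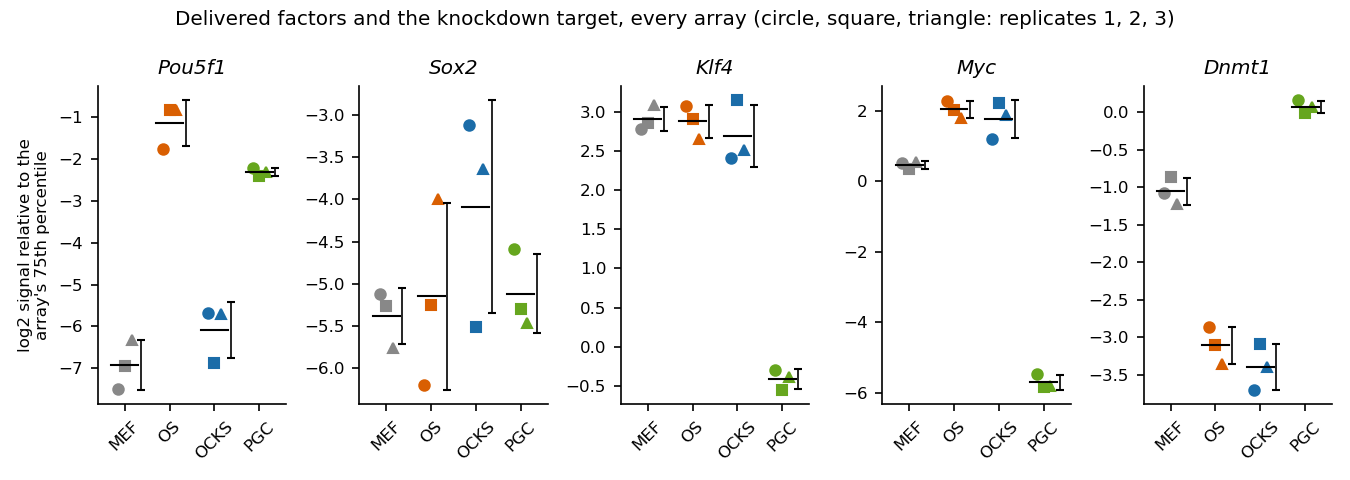
Level (log2 signal relative to the array's 75th percentile) of Pou5f1, Sox2, Klf4, Myc and Dnmt1 on all 12 arrays; bars are group means and error bars 1 SD of 3 arrays. The OS arrays stand from -1.76 to -0.83 for Pou5f1 and the OCKS arrays from -6.87 to -5.69, whereas OS and OCKS overlap for the other 4 genes.

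No gene passed an adjusted p under 0.001 together with a 2-fold difference in either direction (limma over all 12 arrays; percent called 0 of the 15705 tested). At an adjusted p under 0.05, 9 genes rose (0.0573%) and 17 fell (0.108%) in OCKS, 26 in all (0.166%). The unadjusted p was under 0.05 for 2876 genes (18.3%), 1512 higher and 1364 lower. The groups did not overlap in 1707 genes with OCKS higher (10.9%) and 1510 with OCKS lower (9.61%). The median difference over all tested genes was 0.01, and in 13393 genes (85.3%) the 95% interval lay within 2-fold either way. The 26 genes all had groups that did not overlap. The arrays of the shared slide then differ in the same direction by construction, so they add no separate check. The same 26 genes all passed without OS replicate 3, among 440 that rose (2.77%) and 549 that fell (3.45%) in that fit. OS replicate 3 lay between the OCKS mean and the mean of the other OS arrays in 21 of the 26. Without OS replicate 2 the fit called 2 risen (0.0127%) and 1 fallen gene (0.00634%), and without OCKS replicate 3 the counts were 0 and 2. Without OCKS replicate 2, the array farthest from its group, they were 216 (1.36%) and 137 (0.865%), again with the same 26 genes among them. That array was also the OCKS array nearest to OS on the line above. Leaving it out therefore widens the difference between the groups by construction, as with OS replicate 3. Other fits kept from 0 to 26 of these genes. All 26 passed with quantile normalization and with median scaling, 18 with spike-in scaling and 14 with the mean of a gene's probes. In contrast, 2 passed without OS replicate 2 and 2 without OCKS replicate 3. A fit of the 6 arrays alone kept 1, and slide or replicate number as a fixed block kept 0. Without both arrays of the shared slide 14 genes rose (0.088%) and 138 fell (0.867%), 15 of the 26 included. The stricter rule of 0.001 and 2-fold gave 9 risen (0.0566%) and 33 fallen genes (0.208%) without OS replicate 3.

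**Figure D3:**
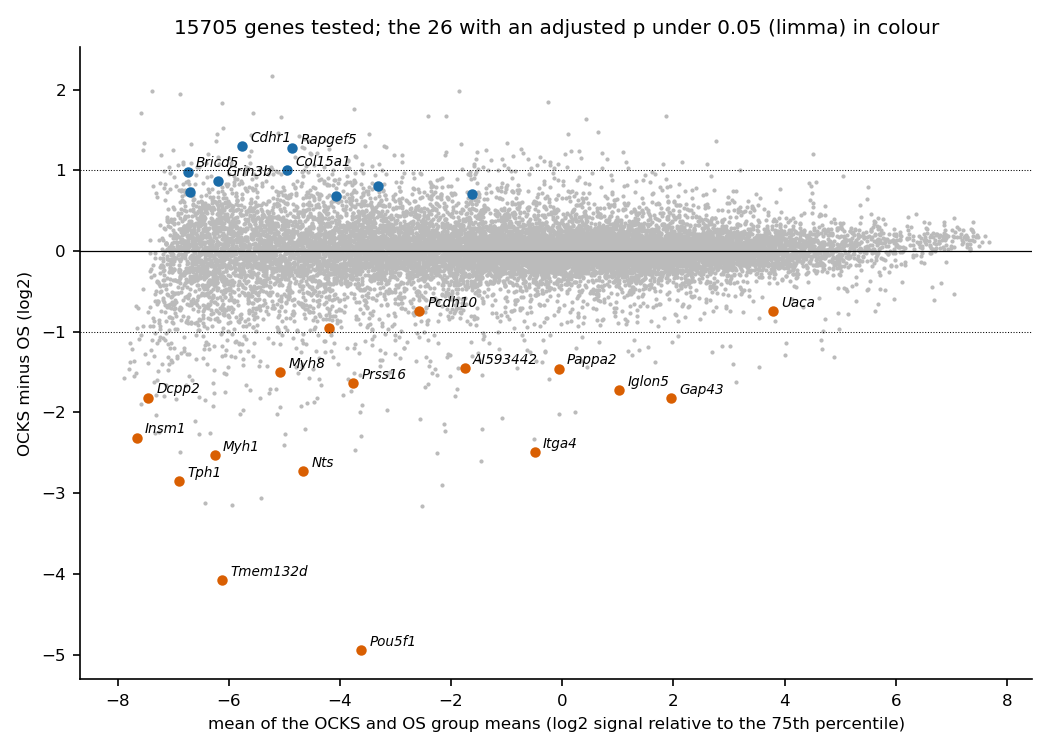
Difference OCKS minus OS (log2) against the mean level of the groups for each of the 15705 genes tested; coloured points are the 9 genes that rose (blue) and the 17 that fell (orange) at an adjusted p under 0.05, and dotted lines mark 2-fold. The fallen genes reach -4.95 (Pou5f1) and the risen ones 1.30 (Cdhr1).

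Of the 17 fallen genes, 14 had a fitted difference of at least 2-fold (0.0891% of genes tested), although for Insm1 and Dcpp2, below background in OCKS, the shown bound is under 2-fold. Nts, the precursor of the peptide neurotensin, read -5.83, -6.59 and -5.68 in OCKS and -3.62, -2.98 and -3.30 in OS, a difference of -2.73 (SE 0.40, adjusted p = 0.04). All 3 OS arrays were high, OS replicate 3 included, and control MEFs at -4.25 lay between the groups. Gap43, a growth-cone protein, read 0.94, 1.22 and 0.97 in OCKS and 3.16, 3.14 and 2.30 in OS, and fell by 1.82 on the log2 scale (SE 0.23, adjusted p = 0.02). Gap43 in control MEFs averaged 1.55, above every OCKS array and below every OS array. Iglon5, an immunoglobulin-type adhesion protein of neurons, read -0.07, 0.37 and 0.17 in OCKS and 2.34, 2.21 and 1.11 in OS, and fell by 1.73 (SE 0.28, adjusted p = 0.0482). Its OS replicate 3 lay between the other OS arrays and the OCKS arrays, and its MEF mean of 2.26 was at the level of the higher OS arrays. Pcdh10, a protocadherin, fell by 0.74 (SE 0.09), from -2.19, -2.11 and -2.31 in OS to -2.90, -3.00 and -2.92 in OCKS.

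Itga4, the alpha-4 integrin subunit that binds Vcam1 and fibronectin, read -1.72, -1.88 and -1.63 in OCKS and 0.93, 1.57 and -0.25 in OS. It fell by 2.50 (SE 0.37, adjusted p = 0.04), or 5.64-fold. OS replicate 3 was the lowest of the OS arrays and still above every OCKS array, and without it the Itga4 difference was -3.00 (adjusted p = 0.000344). A second probe of Itga4 gave -1.74. Pappa2, a protease that cleaves IGF-binding proteins, read -0.88, -0.35 and -1.14 in OCKS and 0.96, 0.81 and 0.22 in OS and fell by 1.46 (SE 0.22). Control MEFs read -2.81 for Pappa2, lower than both transfected groups. Prss16, a thymic serine protease, read -4.29, -4.58 and -4.85 against -2.90, -2.37 and -3.56 and fell by 1.63 (SE 0.25).

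The skeletal muscle myosin heavy chains Myh1 and Myh8 were both among the fallen genes. Myh8, the perinatal form, read -5.94, -5.68 and -5.85 in OCKS and -4.24, -4.35 and -4.38 in OS and fell by 1.497 (SE 0.16, adjusted p = 0.0106). Myh1, an adult fast form, was well above background on 1 of 3 OCKS arrays and on all OS arrays, at -8.16, -7.38 and -7.02 against -5.09, -5.07 and -4.80. It therefore passed the filter through OS alone, unlike Myh8. These family members are similar in sequence and neighbours on their chromosome, so a signal shared between their probes was not tested. Myh3, the embryonic form, was also lower in every OCKS array, at -6.54, -4.88 and -4.24 against -3.85, -3.71 and -3.72, but its difference of -1.46 (SE 0.44) did not pass (adjusted p = 0.142). The fallen genes Uaca (-0.74), Cyp2d22 (-0.95) and AI593442 (-1.45) complete those that were measured on all 6 arrays. Tmem132d, a membrane protein, was well above background on 1 OCKS array. Its levels of -7.22, -8.10 and -9.15 in OCKS stood against -3.52, -3.33 and -5.39 in OS.

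Tph1, Insm1 and Dcpp2 were well above background on every OS array and on no OCKS array, so that their differences are bounds. They passed the filter through OS alone, as Myh1 and Tmem132d did. With a filter on all 6 OS and OCKS arrays 19 of the 26 called genes were tested and 12 passed. Tph1 makes the first step of serotonin synthesis. It read -5.34, -5.14 and -5.94 in OS and was at least 3.73-fold lower in OCKS (measured means -8.33 in OCKS and -5.47 in OS, adjusted p = 0.04), while control MEFs were far higher at -1.41, -1.15 and -1.56. Insm1, a zinc-finger factor of neuroendocrine cells, was at least 1.83-fold lower in OCKS (adjusted p = 0.0482), and Dcpp2, a secreted salivary-type protein, at least 1.77-fold lower (adjusted p = 0.02). In all, 26 of the 19718 genes on the array were detected on every OS array and no OCKS array, and 8 the other way round. The share of spots well above background was 79.1%, 71.9% and 72.7% on OCKS replicates 1, 2 and 3. It was 75.6%, 76.7% and 75.4% on the OS arrays, and its part in these counts was not tested.

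Of the 9 risen genes 3 reached 2-fold (0.0191% of genes tested). Cdhr1, a cadherin-related protein known from photoreceptors, read -5.23, -5.00 and -5.12 in OCKS and -6.69, -6.21 and -6.37 in OS, a difference of 1.30 (SE 0.14, adjusted p = 0.0106). The OCKS level was close to that of control MEFs at -5.13, and the OS arrays lay below both. Rapgef5, an exchange factor for Rap and Ras GTPases, read -3.97, -4.49 and -4.19 in OCKS and -5.83, -5.53 and -5.12 in OS, a difference of 1.28 (SE 0.20, adjusted p = 0.0482). Here control MEFs at -5.83 were at the OS level. Col15a1, a basement-membrane collagen, read -4.52, -4.38 and -4.46 against -5.67, -5.50 and -5.20, a difference of 1.004 (SE 0.16, adjusted p = 0.0482), and its 2 other probes gave 1.07 and 0.98.

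The remaining 6 risen genes differed by less than 2-fold. Mdm4, the p53-binding partner of Mdm2, rose by 0.71 (SE 0.11), and read -1.24, -1.16 and -1.38 in OCKS and -2.05, -1.89 and -1.97 in OS. Grin3b, an NMDA receptor subunit, rose by 0.87 (SE 0.13) and Bricd5 by 0.99 (SE 0.11). Cmtm5 rose by 0.68 and Ttc41 by 0.73. Second probes were weaker for several of them: 0.34 for Mdm4, 0.36 for Cmtm5 and 0.10 for Ttc41, none past an adjusted p of 0.05. Grin3b, Bricd5, Cmtm5 and Ttc41 were dim, between -7.42 (Bricd5) and -3.59 (Cmtm5) on every OS and OCKS array. Cdhr1, Rapgef5 and Col15a1 were well above background on all 6 arrays, but some of the remaining risen genes were not. Those passed the filter through 1 group alone, as some fallen genes did.

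Promoter sequences are shown for 4 of the called genes because the groups were given different factors, and Klf4 and Myc have preferred letters that can be looked for there. Each runs from 250 bases before to 50 bases after the start of the gene, 5′ to 3′ on the gene's strand, from RefSeq (GRCm38.p6). Capitals mark exact matches to GGGTGTG or GGGCGTG, the KLF4-type letters, on either strand, and the E-box CACGTG was searched too. Cdhr1 lies at chr14:37098298-37098597 (minus strand), Col15a1 at chr4:47207762-47208061 (plus), Itga4 at chr2:79255176-79255475 (plus) and Nts at chr10:102490369-102490668 (minus).
Cdhr1: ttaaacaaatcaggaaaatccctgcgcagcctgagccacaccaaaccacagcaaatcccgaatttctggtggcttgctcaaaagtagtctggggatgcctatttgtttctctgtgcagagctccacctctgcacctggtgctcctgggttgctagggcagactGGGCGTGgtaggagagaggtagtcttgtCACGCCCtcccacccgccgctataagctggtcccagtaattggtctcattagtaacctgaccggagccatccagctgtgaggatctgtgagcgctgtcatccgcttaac
Col15a1: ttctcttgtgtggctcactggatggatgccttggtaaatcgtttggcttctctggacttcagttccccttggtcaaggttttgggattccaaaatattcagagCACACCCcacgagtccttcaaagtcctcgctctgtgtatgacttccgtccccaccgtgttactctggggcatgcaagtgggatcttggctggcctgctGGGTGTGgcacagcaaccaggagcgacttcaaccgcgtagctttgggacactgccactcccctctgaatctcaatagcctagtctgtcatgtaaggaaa
Itga4: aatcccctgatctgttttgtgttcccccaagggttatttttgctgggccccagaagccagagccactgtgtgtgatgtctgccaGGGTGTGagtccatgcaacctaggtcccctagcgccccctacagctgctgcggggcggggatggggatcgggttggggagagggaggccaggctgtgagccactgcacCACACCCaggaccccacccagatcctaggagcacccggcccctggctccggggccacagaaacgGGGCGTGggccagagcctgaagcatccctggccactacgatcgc
Nts: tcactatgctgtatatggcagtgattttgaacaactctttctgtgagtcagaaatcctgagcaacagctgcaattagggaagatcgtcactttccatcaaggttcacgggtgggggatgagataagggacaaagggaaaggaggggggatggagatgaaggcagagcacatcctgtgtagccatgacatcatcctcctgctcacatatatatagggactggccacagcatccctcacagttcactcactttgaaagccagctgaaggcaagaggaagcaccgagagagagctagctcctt

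The promoters of the risen genes Cdhr1 and Col15a1 held 2 KLF4-type matches each, that of the fallen gene Itga4 held 3, and those of Nts, Pou5f1 and Rapgef5 held none. Of 20 called genes matched to a promoter, 4 held such a match (2 of 8 risen and 2 of 12 fallen), and 0 held CACGTG. Among all 32807 promoters 5096 held GGGTGTG or GGGCGTG and 7.15% held CACGTG. Among the 15721 promoters of tested genes the shares were 20.5% for either KLF4-type motif and 9.17% for CACGTG. A match is a run of letters and not a bound site.

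The target genes through which Myc is best known hardly differed between the groups. Counts of list members below are at an unadjusted p under 0.05 unless another threshold is given. They are to be read against the 9.63% higher and 8.69% lower of all tested genes. Among the 30 tested genes of a MYC target list of growth and metabolism, 0 were higher and 2 lower, and the median difference was -0.04. In 29 of the 30 the 95% interval lay within 2-fold either way. The exception was Odc1, ornithine decarboxylase and a textbook Myc target, which read 4.47, 3.48 and 4.36 in OCKS and 4.98, 5.98 and 4.67 in OS. It was lower in every OCKS array (-1.11, interval -1.82 to -0.39), but did not pass (adjusted p = 0.136). Of the 31 tested genes of ribosome biogenesis and nucleotide synthesis, 0 were higher and 4 lower at an unadjusted p under 0.05 (median -0.07), and all 31 intervals lay within 2-fold. Nucleolin (Ncl) differed by -0.04 and nucleophosmin (Npm1) by -0.08. All 26 cytosolic ribosomal protein genes had intervals within 2-fold, with a median of 0.12. Of 15 genes listed as Myc-repressed, 1 was higher and 1 lower. Thbs1, thrombospondin 1, was the largest of them, at 2.85, 4.14 and 3.38 in OCKS and 5.02, 4.84 and 3.94 in OS (-1.14, adjusted p = 0.156).

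Within the Myc network itself, 12 genes were tested, with 2 higher and 2 lower at an unadjusted p under 0.05 (9.63% and 8.69% of all genes). Mxd1, a Max partner that opposes Myc, read -0.35, -0.51 and -0.35 in OCKS and 0.30, 0.67 and -0.34 in OS (-0.62, adjusted p = 0.155). Mlxipl (ChREBP), a glucose-responsive factor, was 0.92 higher (adjusted p = 0.134), and Mycn differed by -0.53 (adjusted p = 0.202). None of the 12 passed. In the Klf family 15 genes were tested, 1 higher and 3 lower at the same threshold and beside the same shares. The largest difference was that of the dim gene Klf17 (-0.77, adjusted p = 0.178). Klf5 differed by -0.36 and Klf15 by 0.44.

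The Klf4-linked epithelial list split both ways, with 1 gene higher and 3 lower at an unadjusted p under 0.05 of 17 tested. Its median was 0.12 with all arrays, 0.73 between the arrays of the shared slide and -0.19 between the others. Cldn3, a tight-junction claudin, read -1.92, -3.53 and -2.84 in OCKS and 0.27, 0.66 and -1.41 in OS, a difference of -2.60 (SE 0.50, adjusted p = 0.0713), and OS replicate 3 lay midway. Without that array it was -3.23 (adjusted p = 0.00149). Ivl, the cornified-envelope protein involucrin, differed by -1.55 with overlapping groups (adjusted p = 0.223), while Dsp, desmoplakin of desmosomes, was 1.08 higher (adjusted p = 0.14). Epithelial cadherin, Cdh1, was dim at -5.27, -6.89 and -5.78 in OCKS and -6.74, -6.61 and -6.50 in OS, a difference of 0.64 (interval -0.26 to 1.53).

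Genes of adipocytes were higher in the OCKS arrays and in OS replicate 3. Of 20 tested genes of adipocyte differentiation 14 were higher and 1 lower at an unadjusted p under 0.05, against 9.63% and 8.69% of all genes, and the median difference was 0.81 against 0.01. None passed an adjusted p under 0.05 with all arrays. Cidec, a lipid droplet protein, read 3.27, 1.69 and 3.17 in OCKS and 0.46, 0.19 and 2.45 in OS (1.67, SE 0.55, adjusted p = 0.158). Adipoq, the hormone adiponectin, read 3.63, 2.80 and 3.93 in OCKS and 1.80, 1.20 and 3.29 in OS (1.36, SE 0.45, adjusted p = 0.162). In both genes OS replicates 1 and 2 were low and OS replicate 3 was above OCKS replicate 2. Retn, resistin, differed by 1.46, Cfd, adipsin, by 1.23, and Plin4, a lipid droplet coat protein, by 1.08. The master regulators differed less: Pparg read 3.32, 3.12 and 3.33 in OCKS and 2.56, 2.26 and 3.15 in OS (0.60), and Cebpa differed by 0.55. Cebpb, which acts early in adipogenesis, was the lower one, at -0.44.

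Both groups lay far above control MEFs in several of these genes, Cidec (-4.78 on average in MEFs) and Adipoq (-3.08) included. Fabp4, the fatty acid carrier of fat cells, read 7.14, 6.86 and 7.09 in OCKS, 6.66, 6.54 and 6.91 in OS and 0.53 on average in MEFs, and its difference between OCKS and OS was 0.33 (interval -0.30 to 0.95). OS replicate 3 was nearer to the OCKS mean than to the mean of the other OS arrays in 20 of the 20 adipocyte genes. Over all genes the same held for 583 of the 742 whose OCKS mean differed at least 2-fold from the mean of those OS arrays. The 20 adipocyte genes did not have to meet that 2-fold condition, and the share of all genes without it is not given here. Without OS replicate 3, 13 of the 20 were called higher at an adjusted p under 0.05 (2.77% of genes in that fit) and the median was 1.14, whereas 3 of the 20 were called without OCKS replicate 2. Between the arrays of the shared slide 18 of 20 were higher (53.6% of all genes), with a median of 1.15. Between the arrays of the other slides the median was 0.59. In fatty acid synthesis, by contrast, 14 tested genes had a median of 0.04, and the synthase Fasn differed by 0.53 (interval -0.06 to 1.11).

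Cytokines and chemokines leaned the other way, lower in the OCKS arrays and in OS replicate 3. Of 30 tested, 8 were lower and 3 higher at an unadjusted p under 0.05, 7 were at least 2-fold lower and 0 at least 2-fold higher (1.8% and 0.84% of all genes), and the median was -0.42. None passed an adjusted p under 0.05. Csf2, the growth factor GM-CSF, read -5.83, -6.70 and -6.11 in OCKS and -3.28, -1.70 and -6.44 in OS (-2.41, SE 0.89, adjusted p = 0.192). Csf3, G-CSF, read -2.83, -3.00 and -3.23 in OCKS and -0.99, -0.61 and -3.09 in OS (-1.46, adjusted p = 0.227). OS replicate 3 was at the OCKS level for both, and the other OS arrays stood well above. Il6 read -3.38, -2.47 and -3.45 against -0.96, -1.05 and -3.02 (-1.42), with the same order. Il33, an alarmin of stromal cells, kept its groups apart with all arrays, at -0.94, 0.43 and -0.33 in OCKS and 1.35, 1.57 and 0.55 in OS (-1.44, adjusted p = 0.148).

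Ccl11, eotaxin, differed by -1.40 and Ccl2, a monocyte attractant, by -0.60. Higher in OCKS at an unadjusted p under 0.05 were Il1rn, the interleukin-1 receptor antagonist (0.63), Ccl9 (0.56) and Il15 (0.36). Ccl5 and Cxcl10, which follow interferon, differed by -0.01 and -0.37 (interval -1.01 to 0.27). OS replicate 3 was nearer to the OCKS mean in 29 of the 30 cytokine genes, and the share of all genes is not given here. Without OS replicate 3, 9 were called lower and 1 higher at an adjusted p under 0.05 (3.45% and 2.77% of genes). Without OCKS replicate 2 the count was 0 either way. The cytokine median was -1.01 between the arrays of the shared slide and -0.33 between the others. Leukocyte markers, the other cells that could supply these messages, had 16 of 22 listed genes tested, with 1 higher and 0 lower at an unadjusted p under 0.05 and a median of -0.46. Cd53, a leukocyte tetraspanin, was at -6.69 to -6.03 in OCKS and -6.12 to -4.62 in OS, and Lyz2, lysozyme, read -5.54, -6.52 and -7.20 against -5.31, -3.61 and -6.62. The median level of the tested leukocyte markers ran from -5.31 to -4.58 on the OCKS arrays and from -5.04 to -3.41 on the OS arrays. Their part in the cytokine values was not tested.

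**Figure D4:**
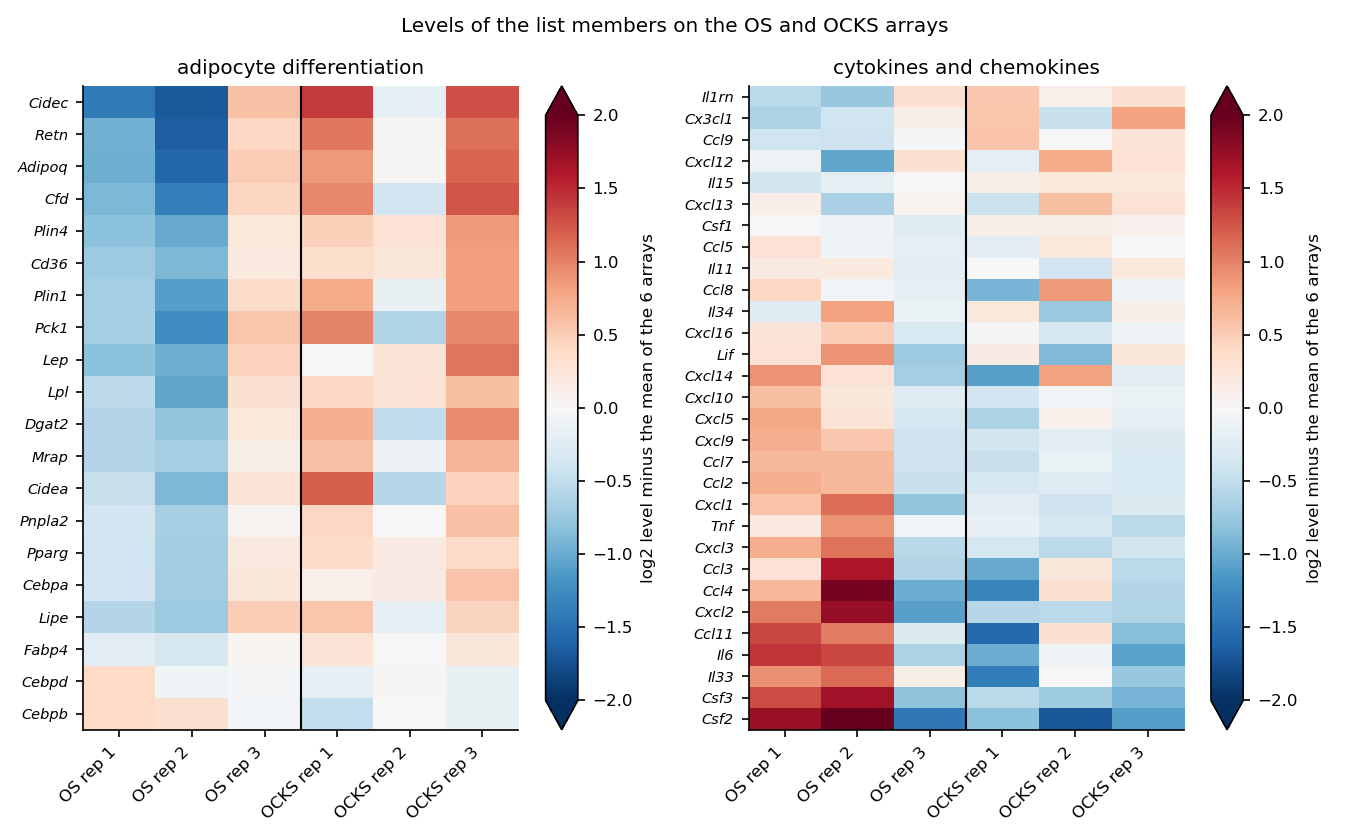
Level of each tested adipocyte gene (left, 20 genes) and cytokine or chemokine gene (right, 30 genes) on the OS and OCKS arrays, as the log2 difference from the gene's mean over the 6 arrays, with genes ordered by OCKS minus OS. OS replicate 3 has the colours of the OCKS arrays for most genes of both lists, and OS replicates 1 and 2 have the opposite ones.

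Genes around these cytokines showed smaller differences. Of 16 tested NF-kB subunits and feedback genes, 0 were higher and 4 lower at an unadjusted p under 0.05 (9.63% and 8.69% of all genes). The median was -0.19, and 15 of 16 intervals lay within 2-fold. Birc3, an apoptosis inhibitor induced by NF-kB, read -2.20, -1.86 and -2.31 in OCKS and -1.33, -1.36 and -1.75 in OS (-0.64, adjusted p = 0.102), and Nfkb1 differed by -0.47. Ptgs2, the inducible prostaglandin synthase, read 1.42, -0.14 and 1.01 against 2.22, 3.104 and 0.62 (-1.22, adjusted p = 0.278). The 34 interferon-stimulated genes tested held 0 higher and 0 lower genes at an unadjusted p under 0.05 and had a median of -0.06. In 31 of the 34 the interval lay within 2-fold. These p-values and intervals rest on the spread over all 12 arrays, control MEFs included. Irf7 read 2.05, 2.36 and 1.865 in OCKS and 2.60, 2.76 and 2.58 in OS (-0.56, adjusted p = 0.454). Its SD was 0.87 in control MEFs, 0.25 in OCKS and 0.10 in OS. The groups did not overlap in 1 of the 34 with OCKS higher and 2 with OCKS lower (10.9% and 9.61% of all genes).

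Of 16 matrix proteases and inhibitors, 4 were lower and 1 higher at an unadjusted p under 0.05 (8.69% and 9.63% of all genes), with a median of -0.19. Mmp10, stromelysin 2, read -1.59, -2.81 and -1.96 in OCKS and 0.05, 0.84 and -1.05 in OS (-2.06, SE 0.42, adjusted p = 0.082), without overlap. Mmp3, stromelysin 1, read 3.67, 4.88 and 4.12 against 5.92, 6.05 and 4.64 (-1.31, adjusted p = 0.184), where OCKS replicate 2 was above OS replicate 3. Timp3, an inhibitor of these proteases, was the higher one, at 1.92, 2.12 and 1.96 in OCKS against 1.09, 1.01 and 1.32 in OS (0.86, adjusted p = 0.0844). Tnc, the matrix protein tenascin C, read -1.97, -0.83 and -2.20 in OCKS and 1.40, 1.14 and -0.56 in OS (-2.33, SE 0.47, adjusted p = 0.082), lower in every OCKS array. Of the 34 extracellular matrix genes 2 were higher and 4 lower at an unadjusted p under 0.05, with a median of -0.10. That median was -0.48 on the shared slide and 0.14 between the other slides, so that its sign turned with the slide. Col15a1, above, was the one called gene of this list.

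Immediate-early genes were led by Fos and Egr1, transcription factors that serum and stress induce. Egr1 read 0.35, 1.99 and 1.42 in OCKS and -0.35, 0.12 and -0.93 in OS (1.64, SE 0.59, adjusted p = 0.182). Fos read -2.57, -0.68 and -1.51 against -3.20, -3.26 and -3.31 (1.67, adjusted p = 0.247). Both were higher on every OCKS array, with OCKS replicate 2 the highest, and OS replicate 3 stood with its own group. The 18 tested genes of that list had a median of -0.09.

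**Figure D5:**
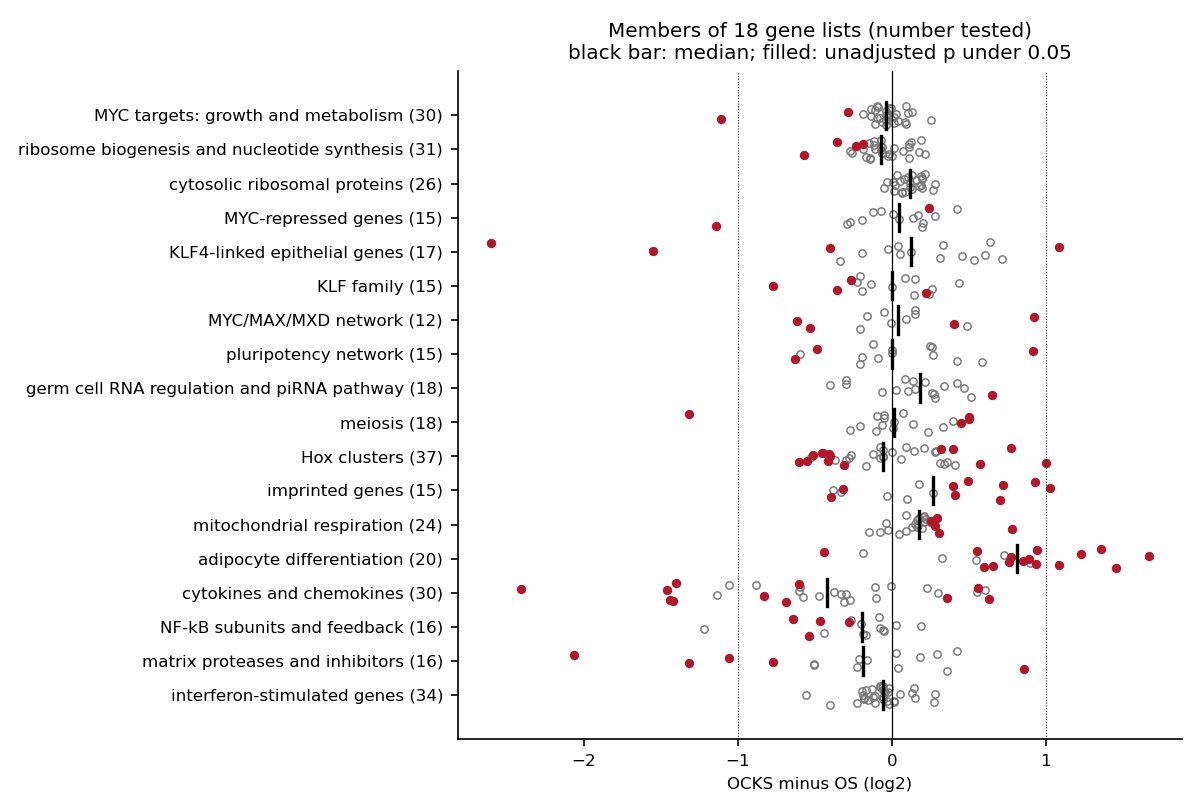
Difference OCKS minus OS (log2) of the members of 18 gene lists, with the number tested in brackets; filled points have an unadjusted p under 0.05, the black bar is the list's median and dotted lines mark 2-fold. Of the lists drawn, the adipocyte list has the highest median (0.81) and the cytokine list the lowest (-0.42), whereas the MYC target and ribosomal lists lie close to 0.

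Of the germline genes followed in these cells, none that was tested passed an adjusted p under 0.05 between OCKS and OS. Tex19.1, a germline gene silenced by DNA methylation in somatic cells, read 1.42, 1.65 and 1.09 in OCKS and 0.54, 0.84 and 1.25 in OS, against -8.25 on average in control MEFs and 3.40 in PGCs. The Tex19.1 difference of 0.52 (interval -0.14 to 1.17) did not pass (adjusted p = 0.381), and OS replicate 3 was above OCKS replicate 3. Dazl, an RNA-binding protein of germ cells, read -1.98, -3.34 and -3.46 in OCKS and -3.30, -2.51 and -2.07 in OS (-0.30, interval -1.25 to 0.65), with -9.73 in MEFs. Sycp3, a protein of the meiotic chromosome axis, read -4.30, -4.44 and -4.24 in OCKS and -5.01, -4.50 and -4.48 in OS (0.33, adjusted p = 0.297). Its groups did not overlap, but the distance between OCKS replicate 2 and OS replicate 3 was small. Sycp1 differed by -0.21 with overlap. Ddx4 (Vasa), the gene behind the Vasa::RFP reporter, read -2.74, -3.01 and -3.26 in OCKS, -2.79, -3.32 and -3.31 in OS and -3.03 in MEFs, so that both groups spanned the MEF level, whereas PGCs read 4.54.

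Of the other germ cell genes followed in these cells, Prdm1, a repressor that specifies PGCs, differed by -0.51 with overlap (adjusted p = 0.236), and Nanos3 differed by 0.06 (interval -0.13 to 0.24). Dppa3 and Hoxb1 were not well above background on any OS or OCKS array, and Stra8, the retinoic-acid-induced gate to meiosis, was so on 2 arrays of each group, so that they were not tested. Of 18 meiosis genes tested, 3 were higher and 1 lower at an unadjusted p under 0.05 (9.63% and 8.69% of all genes), with a median of 0.01. The largest difference was that of Hormad2, a protein of the meiotic chromosome axis, at -6.41, -7.82 and -8.57 in OCKS against -7.18, -5.88 and -5.78 in OS (-1.32, adjusted p = 0.202), and it was well above background on 1 OCKS array. Hormad2 thus passed the filter through OS alone. Between the arrays of the shared slide it was 0.77 higher in OCKS, and without those arrays its difference was -2.36. That latter fit was chosen after seeing the data and has 1 slide a group, so that slide and group cannot be told apart in it. Msh4 read -5.58, -5.63 and -5.63 in OCKS against -6.12, -6.14 and -6.10 in OS (0.50, adjusted p = 0.166) and the recombination-site factor Prdm9 was 0.50 higher (adjusted p = 0.0913). Of 18 tested genes of the piRNA pathway and of RNA control in germ cells, 1 was higher and 0 lower. This was Tex101, a germ cell surface protein, at -1.36, -0.74 and -1.15 against -1.90, -1.66 and -1.64 (0.65, adjusted p = 0.113). The medians of these lists depended on the slide: 0.63 for the RNA list and 0.71 for meiosis between the arrays of the shared slide, and -0.04 and -0.06 between the others. The same held for 13 X-linked germline genes, at 0.57 and -0.12. Rhox5, one of them, differed by 0.37 and Tex13b by 0.84 (adjusted p = 0.238).

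Tfap2c, a factor that acts with Prdm1 in PGCs, was lower in every OCKS array, at -5.89, -7.28 and -6.37 against -5.11, -4.15 and -5.29, a difference of -1.66 (SE 0.37, adjusted p = 0.0892). It was well above background on 2 OCKS arrays. In the pluripotency network 15 genes were tested besides the delivered factors, 1 higher and 2 lower at an unadjusted p under 0.05, with a median of 0.00. L1td1, an RNA-binding protein of embryonic stem cells, read -2.29, -2.73 and -2.23 in OCKS and -3.67, -3.07 and -3.25 in OS (0.92, adjusted p = 0.113). Nanog read -2.43, -2.30 and -2.32 against -2.87, -2.43 and -2.56, a difference of 0.27 (interval -0.01 to 0.55) at a level below control MEFs (-1.52). Tbx3 (-0.63) and Fbxo15 (-0.49) were the lower ones. Of 13 tested DNA methylation enzymes 12 had intervals within 2-fold.

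Hox genes, which set position along the body axis, differed both ways. Of 37 tested, 5 were higher and 8 lower at an unadjusted p under 0.05 (9.63% and 8.69% of all genes), none past an adjusted p of 0.05. The higher ones were Hoxa2, Hoxa3, Hoxa13, Hoxd12 and Hoxd13, and the lower ones Hoxb2, Hoxb4, Hoxb6, Hoxb7, Hoxc6, Hoxc8, Hoxc9 and Hoxd8. Hoxd12 read -4.60, -5.00 and -4.67 in OCKS and -6.14, -6.08 and -5.04 in OS (0.999, adjusted p = 0.183). Hoxb6 read -1.72, -1.82 and -1.91 against -1.39, -1.15 and -1.36 (-0.51, adjusted p = 0.123). The MEF means, -3.00 for Hoxd12 and 0.11 for Hoxb6, were above both groups in both genes.

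Of 15 imprinted genes tested, 7 were higher and 2 lower at an unadjusted p under 0.05 (9.63% and 8.69% of all genes), with a median of 0.26, and the median was 0.12 on the shared slide and 0.33 between the others. Mest read 1.07, 2.20 and 1.81 in OCKS and 0.29, 0.35 and 1.36 in OS (1.03, adjusted p = 0.168). Dlk1, a Notch-type ligand of preadipocytes, read 5.28, 5.83 and 5.43 against 4.31, 4.03 and 5.41 (0.93, adjusted p = 0.173), and OS replicate 3 again stood with OCKS. Igf2, the fetal growth factor, read 0.77, 0.82 and 0.64 against 0.15, -0.24 and 0.15 (0.72, adjusted p = 0.152), and there OS replicate 3 did not. Zim1 was 0.70 higher (adjusted p = 0.0892) and Snrpn differed by -0.39. Mitochondrial respiration had 5 genes higher and 0 lower of 24 at an unadjusted p under 0.05 (9.63% and 8.69% of all genes), with a median of 0.17. These were the coactivator Ppargc1a (0.78) and 4 respiratory chain subunits, from Cox7a2 (0.25) to Uqcrc2 (0.31).

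Signalling genes of the fibroblast differed in single members rather than as lists. Of 20 TGF-beta response genes 3 were higher and 3 lower at an unadjusted p under 0.05 (9.63% and 8.69% of all genes), with a median of -0.10. Inhba, the activin A subunit, read 0.81, 0.64 and 0.74 in OCKS and 1.82, 1.99 and 0.97 in OS (-0.86, adjusted p = 0.113). Tgfbi, a secreted matrix protein that TGF-beta induces, read 1.92, 2.36 and 2.02 against 0.84, 0.56 and 1.98 (0.98, adjusted p = 0.148). OS replicate 3 was the OS array closest to OCKS in both. Of 27 BMP, Id and Wnt genes 5 were higher and 3 lower at the same threshold and beside the same shares. The ligand Bmp4 was among the higher ones, at 0.62, 1.59 and 0.83 against 0.18, -0.64 and 0.60 (0.97, adjusted p = 0.142). Mylk, the myosin light chain kinase of smooth muscle, read -2.18, -2.65 and -2.04 against -3.61, -4.12 and -2.71 (1.19, adjusted p = 0.113). Of 24 genes of cholesterol synthesis and uptake 1 was higher and 4 lower at an unadjusted p under 0.05 (9.63% and 8.69% of all genes). All 33 tested genes of the cell cycle and DNA replication had intervals within 2-fold, with 3 higher and 0 lower.

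Markers of other cell types were checked in the same way. Fibroblast markers had 12 genes tested, with a median of -0.31, which was -1.05 on the shared slide and 0.11 between the others. Thy1, a fibroblast surface protein, read 4.94, 5.83 and 5.29 in OCKS and 6.32, 6.03 and 5.68 in OS (-0.66, adjusted p = 0.166), and Col1a1 differed by -0.12. Both genes were bright in either group, so that defining markers of the labelled cell type were present. Neuron and glia markers had 19 tested, 4 higher and 6 lower at an unadjusted p under 0.05 (9.63% and 8.69% of all genes). At an adjusted p under 0.05, 1 member rose and 1, Gap43, fell (0.0573% and 0.108% of all genes). Ncam1 differed by -0.91, Nefl by -1.91 and Stmn2 by 1.11, all 3 without passing. Epithelial (9 tested, median 0.12), endothelial (9, -0.16) and skeletal muscle markers (8, -0.15) had no gene past an adjusted p of 0.05. The muscle list holds Myh3 but not the fallen genes Myh1 and Myh8.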

How the data were processed

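Total RNA was labelled with Cy3 and hybridised to Agilent whole mouse genome arrays by the authors. The deposited scanner files hold spot intensity from Feature Extraction 10.7.3.1, already background-subtracted, with 0/1 quality flags, which are another column type that the authors deposited. The deposited value table holds log2 values that were shifted by each array's 75th percentile and centred on each probe's median by the authors. 10 of its 12 columns matched their arrays, and it served as an alternative alone.

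Control spots and 83 probes with an uneven spot were left out, which kept 39346 probes, of which 25992 carried a gene name. The log2 intensity minus the array's 75th percentile was taken, the brightest probe stood for a gene, and a gene was tested if well above background on all 3 arrays of OCKS or OS. limma 3.58.1 (R 4.3.3) was fitted to all 12 arrays, which share 1 estimate of spread, with Benjamini-Hochberg adjustment over 15705 genes. An exact permutation test of 3 against 3 arrays cannot give a p below 0.1 and was not used. A bound compares the bright group with the lowest signal that was well above background.

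Calls were to need an adjusted p under 0.001 and 2-fold, and, where too few passed, an adjusted p under 0.05. Named genes were the delivered factors, Dnmt1, germline genes followed in the study, the called genes with the largest differences and up to 2 members of each list with the largest difference; other genes named were chosen after their values were seen. The members and gene lists were chosen with earlier results of these data known. The scripts were tested on simulated data. Alternatives covered scaling, background correction, filter, probes, slide, replicate block, statistic, threshold and left-out arrays. Some genes are not reported here.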

Additional observations from a re-analysis of the deposited data

How the results depend on the processing

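With all arrays 0 genes rose and 0 fell at an adjusted p under 0.001 and 2-fold, and 9 rose and 17 fell at an adjusted p under 0.05 (limma). By the stricter rule the fallen genes numbered 1 with quantile normalization, 1 with median scaling, 12 with spike-in scaling, 2 with normexp, 1 with the filter on all 6 arrays, 1 with the deposited value table and 5 without the shared slide, an alternative chosen after seeing the data. Other thresholds gave 3 risen and 14 fallen (adjusted p under 0.05 and 2-fold), 9 and 17 (no fold minimum) and 22 and 52 (unadjusted p under 0.001 and 2-fold). Leaving out 1 array at a time gave 0 to 9 risen and 0 to 33 fallen. At an adjusted p under 0.05 the risen and fallen counts were 19 and 45 with quantile normalization, 13 and 40 with median scaling, 39 and 60 with normexp, and 14 and 138 without the shared slide, where the 2 arrays left in each group came from 1 slide a group. They were 4 and 12 with the percentile over detected probes, 4 and 7 with no filter, 4 and 8 with the filter on all 6 arrays, 5 and 11 with the mean of a gene's probes, 4 and 7 with slide as a random block and 1 and 5 with the value table. The unmoderated statistic gave 5 fallen genes and spike-in scaling 2673. The fit of the 6 arrays alone gave 0 and 2. With slide as a fixed block, which rests on the shared slide, they were 0 and 0. Leaving out 1 array gave 0 to 440 risen and 1 to 549 fallen; leaving out a control MEF or PGC array alone gave 2 to 7 and 5 to 9. The cause of these changes was not tested.

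Samples of the same number did not deviate together: the correlations of their deviations from the group means were -0.36, -0.29 and 0.13. The replicate block gave 0 risen and 0 fallen genes. None of the 26 genes turned its direction under any alternative tried. Their groups did not overlap, so leaving out arrays keeps the direction by construction and adds no separate check. The named genes and lists gave 189 values, and each was counted again under every alternative. Of these repeated counts, 4399 kept their call or moved by less than the spread between replicates. A further 378 no longer passed it, 106 came to pass it and 207 moved. Dim genes and 3 arrays a group limit what could be called.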

Other observations

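Leaving out OS replicate 3, which lay nearest to OCKS, gave 42 genes past an adjusted p of 0.001 and 2-fold (limma, 9 risen at 0.0566% and 33 fallen at 0.208% of 15895 tested). OS replicate 3 was nearer to the OCKS mean in 38 of them, 6 were also called with all arrays, and 5 were not tested with all arrays. The genes below were picked from these 42 after their values were seen, and that fit widens differences by construction.

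The leukocyte markers, of which 19 were tested in that fit, had 0 higher and 0 lower genes at an adjusted p under 0.05 there (limma), and 1 higher and 0 lower of 16 at an unadjusted p under 0.05 with all arrays. Mcpt8, a basophil protease, read -0.41, -0.90 and -0.97 in OCKS and 2.12, 2.10 and -0.53 in OS, a difference of -1.99 with all arrays (adjusted p = 0.137) and -2.87 without OS replicate 3 (adjusted p = 0.000459, limma). Mcpt4, a mast cell chymase, read -4.98, -5.08 and -5.05 against -2.84, -2.81 and -5.50 (-1.32). Ctsg, cathepsin G, read -3.62, -3.14 and -3.18 against -0.80, -0.74 and -3.33 (-1.69). Prg2, eosinophil major basic protein, read -6.30, -6.58 and -6.58 against -4.20, -3.98 and -6.11 (-1.72). Il1rl1, the receptor of Il33, was bright at 3.11, 3.61 and 3.35 against 5.01, 5.20 and 3.72 (-1.28). In all 5 genes OS replicates 1 and 2 were close to each other and far above OS replicate 3, which was at or near the OCKS level. Nos2, the inducible nitric oxide synthase, had the same order, at -1.57, -1.77 and -1.88 against 0.16, 0.04 and -1.80 (-1.21).

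Ptpn5, a tyrosine phosphatase of neurons, read -3.90, -4.73 and -3.68 in OCKS and -0.26, 0.25 and -2.82 in OS, a difference of -3.17 (adjusted p = 0.082). Among the higher genes Adrb3, the adrenergic receptor of adipocytes, read 1.31, 1.30 and 1.53 in OCKS and -0.45, -0.93 and 1.08 in OS (1.48, adjusted p = 0.113), and Endou, an endonuclease, read -4.41, -4.33 and -4.40 against -6.25, -6.20 and -5.07 (1.46, adjusted p = 0.0578). For Pou5f1, by contrast, OS replicate 3 read -0.83, the level of OS replicate 2.

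Of 7932 tested probes without a gene name, 1134 were higher (14.3%) and 528 lower (6.66%) at an unadjusted p under 0.05, against 8.84% and 9.08% of the tested probes with a name. These 7932 were part of the 28526 probes tested, and 13 of the 36 probes called at an adjusted p under 0.05 had no name.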
